A study of Homo sapiens with 9 samples.

Results

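Gene expression was compared between the 6 libraries in which EZH2 was knocked down and the 3 control libraries of KYSE180, a human esophageal squamous cell carcinoma cell line that the series describes as deficient for KDM6A. The cells of all 9 libraries had been irradiated with 6 Gy. The control group carried a luciferase hairpin (shluc, 3 libraries), and the knockdown groups carried 1 of 2 hairpins against EZH2 (shEZH2#1 and shEZH2#3, 3 libraries each). The titles, which gave the groups, speak of hairpins, whereas the genotype field reads knockout for the same libraries. Whether replicates came from separate cultures is not stated, so p-values cover only a spread between libraries that may be technical. All 9 libraries of the series were used, and unirradiated cells were not analysed here.

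A gene was called changed when it passed 2 conditions. The mean of both hairpins had to differ from shluc by edgeR's quasi-likelihood test at a Benjamini-Hochberg adjusted p below 0.05, and all 6 knockdown libraries had to lie on the same side of the 3 controls. Of 57905 genes in the table, 13252 had enough counts to be tested. By both conditions 2593 genes were called, which is 19.6% of those tested. Of these, 1523 genes were higher (11.5%) and 1070 were lower (8.07%) in every knockdown library than in every control. The range condition alone was met by 1593 genes above the controls (12%) and 1264 below them (9.54%), and the adjusted p alone by 2600 higher (19.6%) and 2204 lower genes (16.6%). Levels are given as CPM, a gene's count relative to its library's total, scaled by edgeR's trimmed mean of M-values (TMM), and differences as log2 fold changes with their standard error (SE). The gap of a gene is the distance in log2 CPM between the control range and the nearest knockdown library.

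EZH2 is the catalytic subunit of Polycomb repressive complex 2 (PRC2), which methylates lysine 27 of histone H3 and keeps many developmental genes silent. KDM6A removes that methyl mark. EZH2 itself is expressed more in dividing than in resting cells, along with many genes of the cell cycle.

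The libraries held between 14958011 and 21152006 estimated counts, so 1 count was worth between 0.0473 and 0.0669 CPM. In each library 2 genes without a symbol took 5.97% to 22.6% of the counts. Their share was 6.96% to 9.28% in shluc, 15.8% to 22.6% with shEZH2#1 and 5.97% to 11.6% with shEZH2#3. A gene's level moved with the GC content of its transcripts differently in each library. The rank correlation across genes between GC content and a library's deviation from the mean of all 9 lay between -0.69 and -0.39 in the shluc libraries, between -0.25 and 0.25 with shEZH2#1 and between 0.37 and 0.64 with shEZH2#3. Across the tested genes the fold change correlated with GC content at a rank correlation of 0.68 (genes are not independent replicates). Ranked by GC content in 10 equal bins, the lowest bin (1295 genes, median 37.5%) held 2 called rises (0.154%) and 164 called falls (12.7%), and the highest (1295 genes, median 64.8%) held 519 rises (40.1%) and 2 falls (0.154%). These trends separate the groups, so a difference in library preparation and a change in GC-rich genes cannot be told apart from them. Every call was therefore repeated with each library's trend over GC content and transcript length removed, which is named the correction below. With the correction, 627 genes (4.73%) were higher and 754 (5.69%) lower. The split between higher and lower turned from 1523 against 1070 to 627 against 754. Called with and without the correction were 490 higher genes (3.70%) and 306 lower genes (2.31%), together 796 (6.01%).

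**Figure D1:**
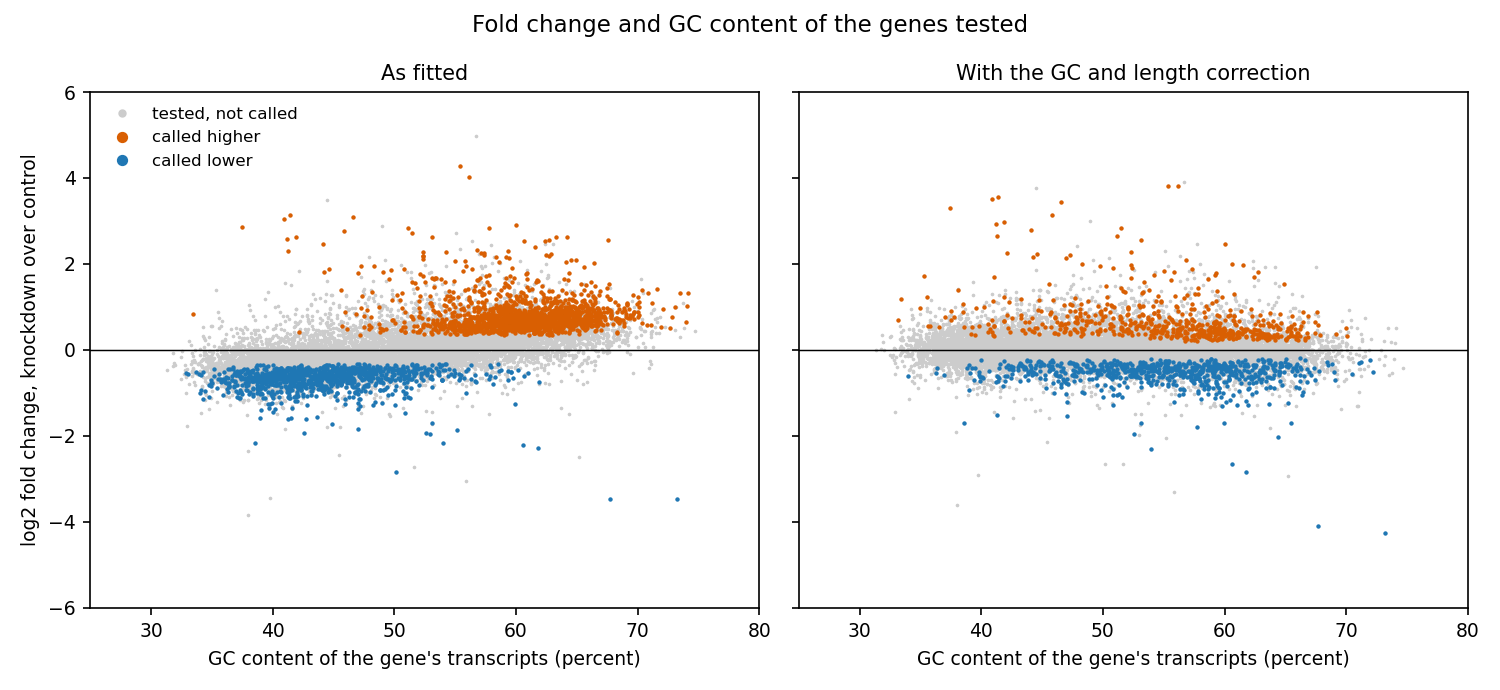
Log2 fold change of the tested genes with a known GC content, the mean of both hairpins over shluc (vertical axis), against the GC content of their transcripts in percent (horizontal axis), as fitted (left) and with the correction (right), where each point is a gene and fold changes beyond 6 on either side are not drawn. On the left the called rises lie mostly at high GC content (median 60.8%) and the called falls at low GC content (median 43.9%), and on the right both directions spread over the range.

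The markers of the cell type were mixed. Of 10 squamous epithelium markers, 5 (KRT5, KRT14, SOX2, KRT6A and DSG3) were below 1 CPM in all 9 libraries and TP63 did not exceed 1.03 CPM, whereas SFN reached 884 CPM and ITGB4 521 CPM. Their summed level was 507 to 699 CPM in shluc, 1080 to 1260 CPM with shEZH2#1 and 1080 to 1200 CPM with shEZH2#3. Nearly all of this sum came from SFN and ITGB4. These were the 2 of the 6 tested members called higher, and of them only ITGB4 was also called with the correction. Most markers of other cell types were low. In every library 8 of 10 leukocyte markers stayed below 1 CPM, and 6, with PTPRC, CD3E and MS4A1 among them, had no count. Of fibroblast markers 6 of 10 stayed below 1 CPM, with COL1A2, PDGFRA and POSTN at 0, and of endothelial markers 6 of 9 did, with KDR, EMCN and TIE1 at 0. The summed fibroblast markers were at 59.7 to 68.4 CPM in shluc, 54.5 to 63.4 CPM with shEZH2#1 and 79.8 to 118 CPM with shEZH2#3, and no member was called. The leukocyte sum was 18.7 to 22.2, 16.3 to 20.3 and 25.4 to 30.7 CPM in the same order, and the endothelial sum 33.3 to 38.9, 32.7 to 33.1 and 56.5 to 67.6 CPM. In the leukocyte and endothelial lists a single member each was called, neither of them with the correction. The endothelial member was ESAM (17.6 to 19.2 CPM in shluc and 24.2 to 34.6 CPM in the knockdown libraries).

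EZH2 itself (ENSG00000106462, GRCh38 chr7:148807383-148884321, minus strand) was lower in all 6 knockdown libraries. Its level was 18.4, 20.1 and 19.5 CPM in shluc, 11.6, 11.4 and 7.28 CPM with shEZH2#1, and 9.67, 11 and 9.11 CPM with shEZH2#3. The groups did not overlap, and the nearest knockdown library lay 0.66 log2 units below the lowest control. EZH2 fell by 0.95 on the log2 scale (SE 0.15, adjusted p = 0.000291), by 0.94 with shEZH2#1 and by 0.96 with shEZH2#3. With the correction it fell by 0.65 (adjusted p = 0.00389).

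Of 13 tested subunits of PRC2, 3 (23.1%) were called lower and none higher, beside 8.07% and 11.5% of all genes. The others beside EZH2 were the histone-binding subunits RBBP4 and RBBP7, which also serve in further chromatin complexes. RBBP4 was at 96.2 to 120 CPM in shluc and 61.5 to 75.1 CPM in the knockdown libraries, and fell by 0.61 (SE 0.12, adjusted p = 0.00134), with 18.0% of its exon length shared with another gene. RBBP7 was at 87.7 to 110 CPM in shluc and 67.1 to 84.4 CPM in the knockdown libraries, and fell by 0.46 (SE 0.12, adjusted p = 0.00671). Neither passed with the correction (-0.14, adjusted p = 0.253, and -0.18, adjusted p = 0.107). The core partners overlapped their controls: SUZ12 was at 3.64 to 6.14 CPM in shluc and 1.75 to 4.59 CPM in the knockdown libraries, and EED at 21.2 to 23.0 and 9.66 to 22.4 CPM. EZH1, the paralog of EZH2, was at 5.03 to 7.62 CPM in shluc and 4.31 to 6.8 CPM in the knockdown libraries.

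Polycomb repressive complex 1 reads the PRC2 mark and ubiquitinates histone H2A. Of its 23 tested subunits, 4 (17.4%) were called higher and 1 (4.35%) lower, beside 11.5% and 8.07% of all genes. RING1, a catalytic subunit, was at 80.5 to 111 CPM in shluc and 114 to 210 CPM in the knockdown libraries (0.54, SE 0.16, adjusted p = 0.0151), CBX2, a chromodomain subunit, at 57.1 to 74.3 and 81.5 to 103 CPM (0.50, adjusted p = 0.00715), and L3MBTL2 at 74.6 to 101 and 110 to 151 CPM (0.56, adjusted p = 0.00509). RYBP, a subunit of the variant complexes, was at 5.61 to 6.38 CPM in shluc and 2.56 to 4.84 CPM in the knockdown libraries, and fell by 0.86 (SE 0.20, adjusted p = 0.00336). Of these 4 genes L3MBTL2 passed with the correction as well (0.34, adjusted p = 0.0239). RING1 had a log2 fold change of 0.01 there, and without shluc replicate 2 it was no longer called (0.42, adjusted p = 0.114).

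Among 12 tested demethylases of lysine 27 and members of the KMT2C and KMT2D complex, 1 (8.33%) was called in each direction. Over all genes 11.5% were called higher and 8.07% lower. KDM6B, the other demethylase of this mark, was at 15.5 to 16.6 CPM in shluc and 18.1 to 34.7 CPM in the knockdown libraries (0.60, SE 0.13, adjusted p = 0.0024), and was not called with the correction (0.18, adjusted p = 0.354). CREBBP, an acetyltransferase that acts on lysine 27, was at 39.2 to 65.4 CPM in shluc and 26.1 to 38.2 CPM in the knockdown libraries and fell by 0.66 (SE 0.15, adjusted p = 0.00291), and by 0.79 with the correction. KDM6A had 3.26 to 4.75 CPM in shluc and 2.82 to 3.90 CPM in the knockdown libraries, which overlap.

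No tested gene among developmental genes that Polycomb often holds silent was called higher. Of 62 in the list, 39 had enough counts to be tested, and the rest could not be called. Of the 39, 0 rose and 1 fell, against 11.5% and 8.07% of all genes tested. Their median log2 fold change was -0.03 against -0.06 for all genes, and -0.2 against -0.01 with the correction. The gene that fell was BMP4 (GRCh38 chr14:53949736-53958761), a ligand of the bone morphogenetic protein pathway. It was at 2.26, 2.23 and 2.78 CPM in shluc, 0.363, 0.966 and 1.03 CPM with shEZH2#1, and 0.515, 0.561 and 0.0552 CPM with shEZH2#3. Each knockdown library lay below the controls, down to about 1 count in the last. The fall was 2.15 on the log2 scale (SE 0.41, adjusted p = 0.000839), and 2.31 with the correction.

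The condition on all 6 libraries removed 2211 of the 4804 genes that passed the adjusted p alone. At its edge, TRIM29 lay just inside, with controls up to 670 CPM and knockdown libraries from 670 to 1220 CPM that differed from the highest control by 0.0003 log2 units, whereas SUMF2 lay just outside, with controls at 242 to 301 CPM and knockdown libraries at 301 to 423 CPM. On the lower side, DCAF1 was just inside (16.0 to 24.4 CPM in shluc, 8.87 to 16.0 CPM in the knockdown libraries) and RTN3 just outside (62.9 to 80.8 and 45.6 to 62.9 CPM). Most called changes were modest. The median log2 fold change was 0.73 over the rises and -0.63 over the falls, and 296 rises and 99 falls reached 2-fold. The gap reached 0.5 log2 units in 162 rises and 32 falls.

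Genes that stood farthest above the controls, among protein-coding genes of at least 5 CPM on average and 1 CPM in every library that were called with and without the correction, were of varied function. The plot of genes with the widest gap shows 11 of the 12 in each direction. The widest gap among these belonged to ADAMTS10 (GRCh38 chr19:8580242-8610735), a secreted metalloprotease that binds fibrillin. It was at 1.43, 1.67 and 1.73 CPM in shluc, 7.08, 10.2 and 9.41 CPM with shEZH2#1, and 5.43, 5.80 and 4.81 CPM with shEZH2#3. The lowest knockdown library lay 1.42 log2 units above the highest control, and ADAMTS10 rose by 2.09 (SE 0.21, adjusted p = 1.75e-05). Its rise was larger with shEZH2#1 (2.46) than with shEZH2#3 (1.73).

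Several of these rises were membrane proteins or enzymes of glycan synthesis. GAL3ST1, which sulfates galactose on glycolipids, was at 27.5, 21.3 and 29.3 CPM in shluc, 65.0, 64.9 and 67.7 CPM with shEZH2#1, and 53.6, 80.2 and 73.9 CPM with shEZH2#3 (1.38, SE 0.15, adjusted p = 2.05e-05). ST6GALNAC6, a sialyltransferase, rose by 1.26 (SE 0.15), from 22.6 to 33.4 CPM in shluc to 62.1 to 85.9 CPM. Its value is uncertain, because 47.0% of its exon length overlaps another gene. FXYD3, a regulator of the sodium pump, was at 5.80, 3.51 and 6.61 CPM in shluc and 12.1 to 22.7 CPM in the knockdown libraries (1.46, SE 0.22, adjusted p = 0.000165). The 2-pore potassium channel KCNK3 was at 10.8 to 15.9 CPM in shluc and 28.9 to 40.5 CPM in the knockdown libraries (1.30, SE 0.15, adjusted p = 3.19e-05).

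The rest of the 12 included a structural and a cell death gene. FN1, fibronectin, was at 93, 142 and 127 CPM in shluc, 293, 280 and 352 CPM with shEZH2#1, and 313, 283 and 250 CPM with shEZH2#3 (1.29, SE 0.16, adjusted p = 3.39e-05). BIK, a BH3-only activator of apoptosis, was at 6.86, 4.51 and 7.71 CPM in shluc, 20.4, 17.1 and 19.5 CPM with shEZH2#1, and 13.9, 16.5 and 15.2 CPM with shEZH2#3 (1.42, SE 0.17, adjusted p = 3.45e-05). In both genes the difference between the hairpins did not pass its own test. ANKRD13D, a ubiquitin-binding protein, rose by 1.26, the unconventional myosin MYO15B by 1.10, and ENDOV, which cuts nucleic acids at inosine, by 1.26. CKMT1B, a mitochondrial creatine kinase, rose by 1.35 (6.34 to 7.19 CPM in shluc, 12.6 to 20.6 CPM in the knockdown libraries), and its reads cannot be told safely from those of its near-identical copy CKMT1A.

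**Figure D2:**
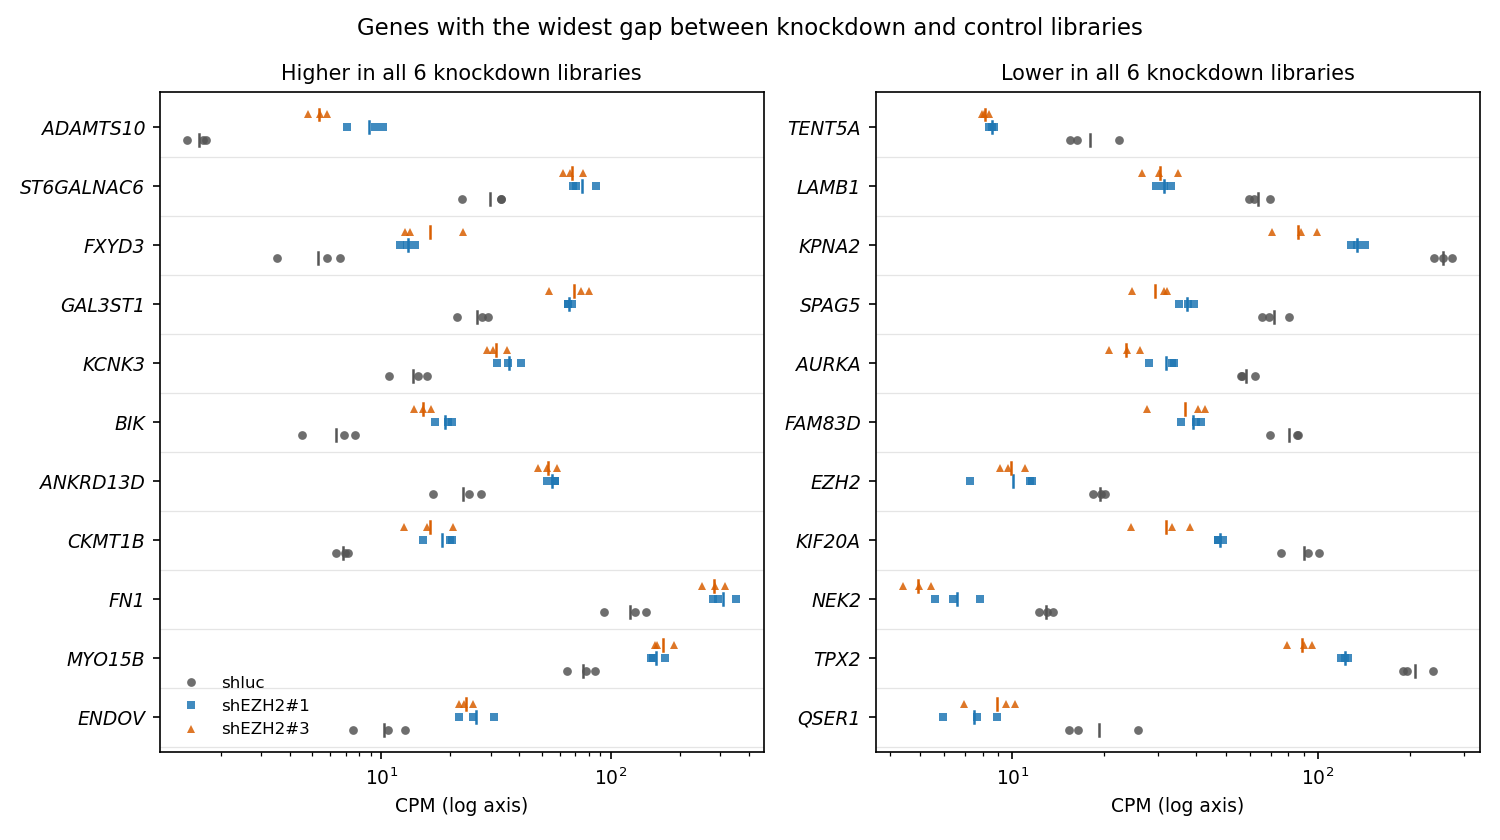
Level of 11 of the 12 higher and 11 of the 12 lower genes with the widest gap between the 6 knockdown libraries and the 3 controls, in CPM on a log axis, where each symbol is a library, colours and shapes mark the group, and the short vertical line is the group mean. As the call requires, the shEZH2#1 and shEZH2#3 libraries of every gene shown lie on the same side of all shluc libraries. The gap runs from 1.42 log2 units in ADAMTS10 to 0.58 in QSER1.

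By the same rule, TENT5A, LAMB1 and KPNA2 stood farthest below the controls, followed by genes of the mitotic spindle. TENT5A (GRCh38 chr6:81491439-81752774), a poly(A) polymerase of messenger RNAs, was at 16.3, 22.3 and 15.4 CPM in shluc, 8.59, 8.39 and 8.75 CPM with shEZH2#1, and 8.07, 7.98 and 8.4 CPM with shEZH2#3. The knockdown libraries were nearly alike, 0.81 log2 units under the lowest control, and TENT5A fell by 1.11 (SE 0.15, adjusted p = 5.51e-05). KPNA2, an importin that carries spindle factors and other cargo, was at 240, 275 and 256 CPM in shluc, 142, 134 and 128 CPM with shEZH2#1, and 70.6, 87.8 and 99.0 CPM with shEZH2#3 (-1.26, SE 0.13, adjusted p = 1.75e-05). Here the libraries fell in 3 steps, and the difference between the hairpins passed its own test. FAM83D, which targets a kinase to the spindle, was at 69.8 to 86.3 CPM in shluc and 27.5 to 42.6 CPM in the knockdown libraries (-1.09, SE 0.14, adjusted p = 5.29e-05).

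The 12 also held EZH2, a matrix gene and a chromatin gene. LAMB1, the beta-1 chain of laminin, was at 59.4, 69.5 and 61.6 CPM in shluc, 33.1, 29.5 and 31.3 CPM with shEZH2#1, and 26.5, 30.2 and 34.9 CPM with shEZH2#3 (-1.04, SE 0.12, adjusted p = 3.3e-05). QSER1, a protein that limits DNA methylation at developmental genes, was at 16.4, 25.8 and 15.3 CPM in shluc and 5.95 to 10.2 CPM in the knockdown libraries (-1.23, SE 0.18, adjusted p = 0.000149).

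Mitosis genes had the highest share of called falls among the lists. Of 65 tested, 35 (53.8%) were called lower and 0 higher, where 8.07% of all genes were called lower, and 23 of the 35 were also called with the correction, where 2.31% of all genes were. The median log2 fold change of the list was -0.78, and -0.51 with the correction, beside -0.06 and -0.01 over all genes. RNA from a whole culture cannot tell fewer cells in mitosis from less RNA per mitotic cell.

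The called genes cover entry into mitosis, spindle assembly, the spindle checkpoint and cytokinesis. MKI67, the coat protein of mitotic chromosomes, was at 163, 236 and 126 CPM in shluc, 81.6, 77.5 and 86.4 CPM with shEZH2#1, and 58.7, 59.0 and 72.2 CPM with shEZH2#3 (-1.28, SE 0.15, adjusted p = 3.39e-05). AURKA, a kinase of the spindle poles, was at 55.9, 62.3 and 56.3 CPM in shluc, 33.9, 33.3 and 28.1 CPM with shEZH2#1, and 20.8, 26.1 and 23.8 CPM with shEZH2#3 (-1.09, SE 0.12, adjusted p = 2.18e-05). Both hairpins gave levels well below shluc, with the shEZH2#3 libraries lowest.

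TPX2, which activates AURKA on spindle microtubules, was at 195, 238 and 190 CPM in shluc, 119, 125 and 123 CPM with shEZH2#1, and 79.5, 95.8 and 90.2 CPM with shEZH2#3 (-1.0, SE 0.12, adjusted p = 3.64e-05). KIF20A, a kinesin of cytokinesis, was at 93, 101 and 75.9 CPM in shluc, 47.0, 48.9 and 47.2 CPM with shEZH2#1, and 24.4, 33.3 and 38.1 CPM with shEZH2#3 (-1.21, SE 0.14, adjusted p = 2.35e-05). In both genes the shEZH2#3 libraries lay below the shEZH2#1 libraries.

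SPAG5, a microtubule-binding protein of the spindle, was at 65.6 to 80.6 CPM in shluc and 24.7 to 39.3 CPM in the knockdown libraries (-1.12, SE 0.13, adjusted p = 2.14e-05). NEK2, a kinase of centrosome separation, was at 12.2 to 13.6 CPM in shluc and 4.40 to 7.86 CPM in the knockdown libraries (-1.18, SE 0.15, adjusted p = 5.43e-05). ANLN, an actin scaffold of the cleavage furrow, was at 34.4, 56.4 and 39.3 CPM in shluc, 29.6, 30.1 and 22.4 CPM with shEZH2#1, and 15.1, 12.7 and 15.9 CPM with shEZH2#3 (-1.12, SE 0.16, adjusted p = 8.85e-05). Its shEZH2#1 libraries came within 0.19 log2 units of the lowest control, much closer than the shEZH2#3 libraries.

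Further members, chosen after their values were seen because of their known roles, were lower as well. CCNB1 and CDK1, the cyclin and kinase that drive entry into mitosis, fell by 1.04 and 0.96. CCNB1 was at 177 to 205 CPM in shluc and 53.2 to 134 CPM in the knockdown libraries, and CDK1 at 17.1 to 23.0 and 6.61 to 14.8 CPM. BUB1, a kinase of the spindle checkpoint, and TOP2A, which untangles chromosomes, fell by 1.07 and 1.03. Not all regulators were called: FOXM1, a transcription factor of these genes, was at 125 to 158 CPM in shluc and 91.9 to 151 CPM in the knockdown libraries, and CDC20, an activator of the anaphase-promoting complex, at 271 to 370 and 221 to 315 CPM.

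**Figure D3:**
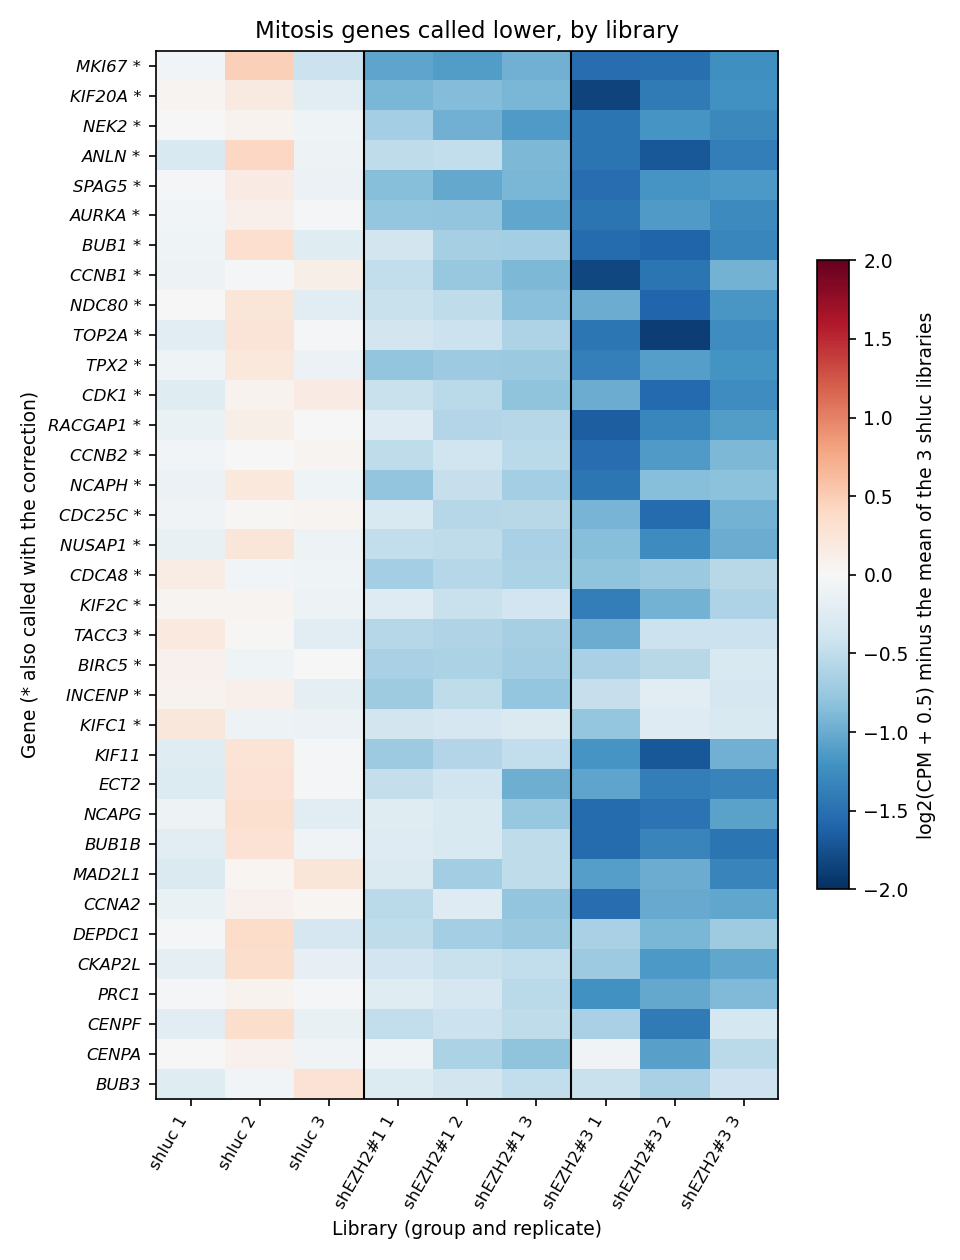
The 35 mitosis genes called lower (rows) in each of the 9 libraries (columns), coloured by log2(CPM + 0.5) minus the mean of the 3 shluc libraries, with an asterisk at the 23 genes also called with the correction. All 6 knockdown columns lie below the controls in each row, as the call requires. Of the 35 genes, 32 had a lower mean with shEZH2#3 than with shEZH2#1, and the hairpins differed in 21 by the test of that difference. Over all 1070 called falls, 164 differed by that test, 150 of them farther from the controls with shEZH2#3.

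Many promoters of mitosis genes hold a pair of short motifs, the CCAAT box bound by NF-Y and the cell cycle genes homology region (CHR), and sequences of the called genes are shown for that reason. The 250 bases before the RefSeq start (GRCh38.p14) were searched on both strands for the letters CCAAT and, as the CHR, the letters TTTGAA. Of the 35 called mitosis genes 30 had an entry. Printed are the 4 called with and without the correction that have the widest gap among those whose window lies outside the gene's annotated span, 5′ to 3′ on the gene's strand with both motifs in capitals. The windows are chr10:128126424-128126673 (minus strand) for MKI67, chr2:96335516-96335765 (plus) for NCAPH, a condensin subunit, chr5:138338356-138338605 (minus) for CDC25C, a phosphatase that activates CDK1, and chr10:60778081-60778330 (plus) for CDK1.
MKI67: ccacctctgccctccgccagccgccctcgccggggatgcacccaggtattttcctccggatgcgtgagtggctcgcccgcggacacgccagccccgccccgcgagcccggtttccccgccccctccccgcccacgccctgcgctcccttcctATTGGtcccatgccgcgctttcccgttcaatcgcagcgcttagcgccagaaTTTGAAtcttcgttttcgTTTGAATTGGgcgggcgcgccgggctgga
NCAPH: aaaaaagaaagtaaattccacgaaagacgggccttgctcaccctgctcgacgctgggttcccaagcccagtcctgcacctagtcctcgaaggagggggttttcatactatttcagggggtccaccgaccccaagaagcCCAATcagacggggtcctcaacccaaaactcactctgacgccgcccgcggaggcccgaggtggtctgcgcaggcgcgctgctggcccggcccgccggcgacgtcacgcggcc
CDC25C: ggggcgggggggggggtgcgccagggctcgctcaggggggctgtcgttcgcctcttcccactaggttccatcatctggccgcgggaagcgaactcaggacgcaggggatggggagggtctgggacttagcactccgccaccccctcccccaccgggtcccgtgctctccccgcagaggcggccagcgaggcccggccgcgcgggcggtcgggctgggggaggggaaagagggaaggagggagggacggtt
CDK1: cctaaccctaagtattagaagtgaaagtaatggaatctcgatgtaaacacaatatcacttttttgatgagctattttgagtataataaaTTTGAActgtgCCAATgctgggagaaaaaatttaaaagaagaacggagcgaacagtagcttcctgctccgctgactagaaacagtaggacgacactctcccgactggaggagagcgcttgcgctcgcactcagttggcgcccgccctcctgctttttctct
In MKI67 the CHR letters begin 47 and 29 bases before the start and CCAAT boxes 98 and 24 bases before it, and the second of each overlap. NCAPH holds 1 CCAAT box 112 bases before its start, CDK1 a CHR match at 161 and a CCAAT box at 150 bases, and CDC25C neither set of letters in this window. Over the 30 called mitosis genes, 15 (50.0%) held the CHR letters, 22 (73.3%) a CCAAT box and 12 (40.0%) both. The 27 mitosis genes that were not called and had an entry were alike, with 13 (48.1%), 18 (66.7%) and 12 (44.4%). Over all 27305 promoters the shares were 13.6%, 33.0% and 4.85%. Of all 898 genes called lower with an entry 10.4% held the CHR letters, and of 1126 called higher 2.93%, beside 8.05% of 9971 genes tested, which differ in GC content as given above. A match to these letters is a description of the window and not a measured binding site. A single start per gene was searched, so letters before any other start of a gene, CDC25C included, would be missed.

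DNA replication genes were called in both directions. Of 49 tested, 4 were called higher (8.16%) and 7 lower (14.3%), beside 11.5% and 8.07% of all genes. Also called with the correction were 1 and 2 of them. The log2 fold change was above 0 in 12 of the 49 and below 0 in 37, with a median of -0.30 (-0.11 with the correction) beside -0.06 over all genes. RRM1 and RRM2, the subunits of ribonucleotide reductase, were lower. RRM1 was at 61.0 to 83.3 CPM in shluc and 34.3 to 57.8 CPM in the knockdown libraries (-0.76, SE 0.13, adjusted p = 0.00053), and RRM2 at 119 to 131 and 67.3 to 90.3 CPM (-0.67, SE 0.12, adjusted p = 0.000563). RRM2 was also called with the correction. CDT1, which loads the replicative helicase, was at 133 to 181 CPM in shluc, 197 to 245 CPM with shEZH2#1 and 345 to 459 CPM with shEZH2#3 (0.88, SE 0.15, adjusted p = 0.000412). E2F1, a transcription factor of the G1 to S transition, was at 90.3 to 130 and 157 to 219 CPM (0.76, SE 0.15, adjusted p = 0.00104). Neither CDT1 nor E2F1 was called with the correction.

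Among 42 tested genes of homologous recombination and the Fanconi anemia pathway, 2 (4.76%) were higher and 4 (9.52%) lower. The shares over all genes were 11.5% and 8.07%. FANCI, which is ubiquitinated at stalled forks, was at 29.3 to 41.9 CPM in shluc and 15.1 to 26.4 CPM in the knockdown libraries (-0.78, SE 0.14, adjusted p = 0.000532). FANCE, a core complex subunit, was at 15.8 to 24.0 and 30.1 to 42.8 CPM (0.80, SE 0.15, adjusted p = 0.000737). Both were also called with the correction. EXO1, a nuclease of end resection, fell by 0.68 and TP53BP1, which opposes resection, by 0.62, with neither called under the correction. Another gene overlaps 28.7% of the exon length of TP53BP1.

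Non-homologous end joining genes rejoin breaks such as those made by radiation. Of 20 tested, 7 (35.0%) were called lower, where 8.07% of all genes were, and 1 higher. PRKDC and XRCC6 were the 2 falls called with the correction, and the median log2 fold change was -0.42 without and -0.14 with it. The median GC content of the list was 46.5%. PRKDC, the catalytic subunit of the DNA-dependent kinase, was at 172, 264 and 129 CPM in shluc, 106, 91.1 and 101 CPM with shEZH2#1, and 79.9, 92.2 and 93.8 CPM with shEZH2#3 (-1.0, SE 0.16, adjusted p = 0.000331). The controls themselves spread more than the knockdown libraries here. XRCC5 and XRCC6, the Ku proteins that bind DNA ends, fell by 0.53 (SE 0.13, adjusted p = 0.00483) and 0.43 (SE 0.13, adjusted p = 0.0142). SHLD2, of the shieldin complex, fell by 0.76 (2.67 to 4.15 CPM in shluc and 1.14 to 2.54 CPM in the knockdown libraries), and its call was not stable. It was lost with the correction (-0.30, adjusted p = 0.455), with DESeq2 (adjusted p = 0.0518) and without any 1 of 5 libraries, which were shluc replicate 2 (-0.52, adjusted p = 0.257), shEZH2#1 replicates 1 and 3 and shEZH2#3 replicates 1 and 2 (adjusted p = 0.0579 to 0.0706). PARP2, a sensor of breaks, fell by 0.57, at 16.9 to 18.5 CPM in shluc and 8.01 to 16.9 CPM in the knockdown libraries, so the ranges nearly met. With each hairpin alone, PARP2 fell by 0.98 with shEZH2#3 and by 0.16 with shEZH2#1, where edgeR's test was not passed (adjusted p = 0.528). XRCC5 likewise fell by 0.81 with shEZH2#3 and by 0.25 with shEZH2#1 (adjusted p = 0.264).

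p53 target genes were higher where they were called. Of 32 tested, 9 (28.1%) were called higher and 0 lower, beside 11.5% of all genes higher, and 6 were also called with the correction. BAX, the pore-forming effector of apoptosis, was at 37.3, 25.0 and 42.6 CPM in shluc, 55.4, 64.5 and 74.2 CPM with shEZH2#1, and 84.5, 69.4 and 67.3 CPM with shEZH2#3 (0.98, SE 0.16, adjusted p = 0.000388). PHLDA3, an inhibitor of AKT, was at 103, 69.9 and 120 CPM in shluc, 186, 177 and 197 CPM with shEZH2#1, and 176, 209 and 188 CPM with shEZH2#3 (0.95, SE 0.16, adjusted p = 0.000352). Its knockdown libraries were nearly alike in both hairpins. FDXR, a mitochondrial reductase, rose by 0.93 (SE 0.16, adjusted p = 0.000408), and CDKN1A, which encodes the cell cycle inhibitor p21, named after its value was seen, was at 120 to 151 CPM in shluc and 203 to 292 CPM in the knockdown libraries (0.85, SE 0.14, adjusted p = 0.000295). MDM2, the ligase that degrades p53 and a p53 target itself, was at 4.61 to 7.38 and 2.93 to 6.10 CPM, which overlap.

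The BCL2 family held the same kind of members. Of 17 tested, 7 (41.2%) were called higher and 0 lower, beside 11.5% and 8.07% of all genes. All 7 promote apoptosis: the effectors BAX, BAK1 and BOK and the BH3-only proteins BIK, BAD, BMF and BBC3. BMF was at 8.43, 7.54 and 4.22 CPM in shluc, 14.3, 13.6 and 13.6 CPM with shEZH2#1, and 19.6, 17.5 and 15.6 CPM with shEZH2#3 (1.21, SE 0.19, adjusted p = 0.000218). BAD was at 43.7 to 83.4 CPM in shluc and 125 to 176 CPM in the knockdown libraries (1.26, SE 0.18, adjusted p = 8.85e-05), with 23.7% of its exon length shared with another gene. BAK1, at 136 to 187 and 247 to 377 CPM, rose by 0.86, and BOK, at 40.1 to 62.7 and 82.5 to 119 CPM, by 0.87. BBC3, which encodes PUMA, was at 4.15 to 5.53 and 8.17 to 10.5 CPM (0.89, SE 0.17, adjusted p = 0.000751), and was the 1 of the 7 not called with the correction (0.18, adjusted p = 0.398). BCL2L1 and MCL1, which restrain apoptosis, overlapped their controls: BCL2L1 was at 229 to 280 CPM in shluc and 222 to 380 CPM in the knockdown libraries, and MCL1 at 71.5 to 90.2 and 45.7 to 73.2 CPM.

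**Figure D4:**
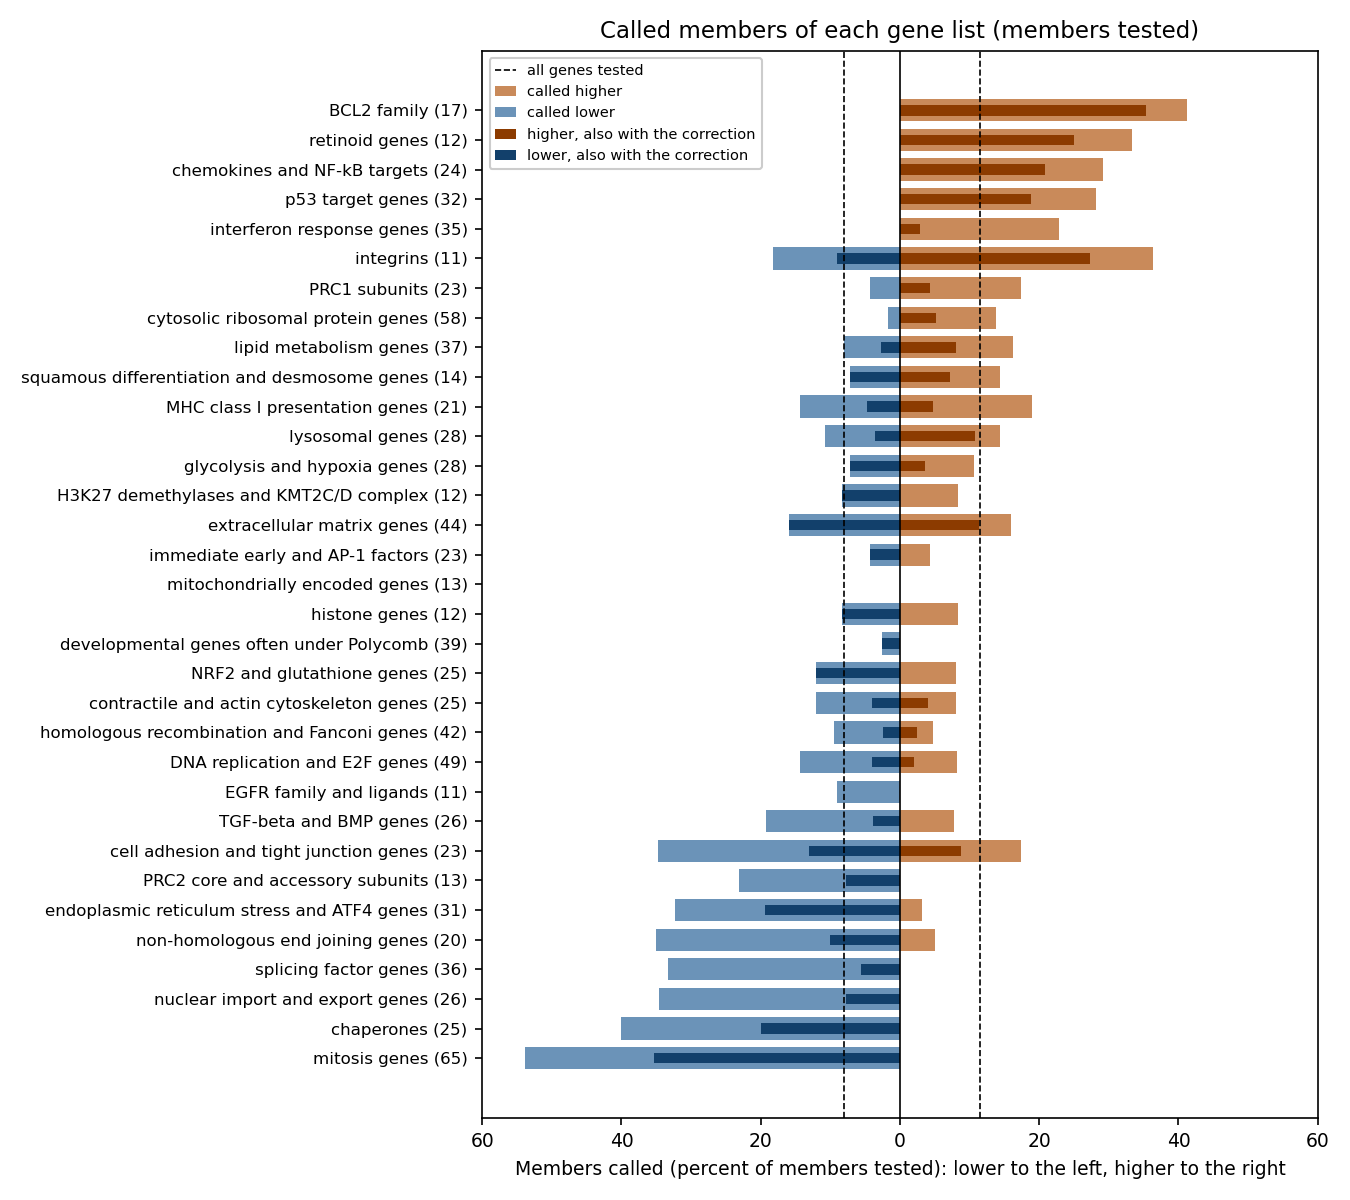
Percent of each gene list's tested members that were called higher (right, brown) or lower (left, blue), with the narrow dark bars for members also called with the correction and the number tested in parentheses. The dashed lines mark the shares over all genes tested, 11.5% higher and 8.07% lower, and the mitosis genes reach farthest on the lower side (53.8%) and the BCL2 family on the higher side (41.2%).

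Interferon response genes were called higher in 8 of 35 (22.9%) and lower in 0, beside 11.5% and 8.07% of all genes. Among the 8 only ISG20 was also called with the correction, where 3.70% of all genes were. ISG20, an RNA exonuclease, was at 5.90, 4.07 and 7.71 CPM in shluc, 18.9, 13.2 and 16.7 CPM with shEZH2#1, and 12.4, 9.41 and 11 CPM with shEZH2#3 (1.19, SE 0.19, adjusted p = 0.000341). IRF9, the DNA-binding part of the interferon-induced complex ISGF3, was at 7.66 to 10.3 CPM in shluc, 22.2 to 30.7 CPM with shEZH2#1 and 12 to 15.9 CPM with shEZH2#3 (1.08, SE 0.16, adjusted p = 0.000196). Its value is uncertain, since 48.4% of its exon length overlaps another gene. IRF7, a regulator of type I interferon, was at 4.07 to 4.70, 10.9 to 13.2 and 5.15 to 6.48 CPM in the same order (0.93, adjusted p = 0.000612), and ISG15, a ubiquitin-like protein, at 62.9 to 128, 190 to 222 and 129 to 140 CPM (0.78, adjusted p = 0.00222). In these genes the shEZH2#1 libraries stood higher than the shEZH2#3 libraries, which for ISG15 began 0.01 log2 units above the highest control.

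Of 21 tested genes of antigen presentation on MHC class I, 4 (19.0%) were higher and 3 (14.3%) lower. Over all genes 11.5% and 8.07% were. In each direction 1 was also called with the correction. NLRC5, the activator of class I genes, was at 49.0 to 56.7 CPM in shluc, 124 to 145 CPM with shEZH2#1 and 64.8 to 83.5 CPM with shEZH2#3 (0.96, SE 0.13, adjusted p = 8.85e-05). NLRC5 was not called with the correction, where knockdown and control libraries overlapped. Its corrected log2 fold change was 1.30 with shEZH2#1 and 0.11 with shEZH2#3. TAPBPL, an editor of bound peptides, rose by 0.69, also without a call under the correction. CANX, a chaperone of newly made heavy chains, was at 317 to 409 CPM in shluc and 185 to 242 CPM in the knockdown libraries, and fell by 0.76 (SE 0.13, adjusted p = 0.000345).

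Chemokines and NF-kB targets were called higher in 7 of 24 (29.2%) and lower in 0, beside 11.5% and 8.07% of all genes. Of the 7, 5 were also called with the correction. CXCL1, a neutrophil chemokine, was at 0.829, 0.997 and 1.25 CPM in shluc, 2.96, 2.05 and 2.57 CPM with shEZH2#1, and 2.92, 2.74 and 2.93 CPM with shEZH2#3 (1.39, SE 0.28, adjusted p = 0.00114). The levels were low, near 1 to 3 CPM, and the separation of the groups was a condition of the call. CXCL6 had 0, 0.399 and 0.862 CPM in shluc and 1.22 to 2.72 CPM in the knockdown libraries (2.30, SE 0.53, adjusted p = 0.00295), and CXCL8 had 1.2 to 2.06 and 2.48 to 3.49 CPM (0.83, SE 0.26, adjusted p = 0.0178). CXCL8 was no longer called without shluc replicate 1 (0.65, adjusted p = 0.0875) or without shluc replicate 2 (0.82, adjusted p = 0.0639). RELB, a subunit of NF-kB, was at 19.8 to 30.3 CPM in shluc and 37.9 to 67.3 CPM in the knockdown libraries (0.97, SE 0.15, adjusted p = 0.000263).

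Immediate early and AP-1 factors were called in 1 of 23 (4.35%) in each direction, beside 11.5% higher and 8.07% lower over all genes. JUND was at 70.9 to 124 CPM in shluc and 160 to 232 CPM in the knockdown libraries (0.88, SE 0.16, adjusted p = 0.000588), without a call under the correction. ATF3, a stress-induced factor, was at 16.9 to 19.9 and 9 to 15.5 CPM (-0.68, SE 0.15, adjusted p = 0.00291), with a call under it.

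Extracellular matrix genes split, with 7 of 44 called higher and 7 lower (15.9% each), beside 11.5% and 8.07% of all genes. With the correction 5 and 7 of them were also called, where 3.70% and 2.31% of all genes were. The laminin chains went in opposite directions. LAMA1, the alpha-1 chain, was at 18.5, 24.8 and 12.6 CPM in shluc, 8.83, 7.49 and 7.72 CPM with shEZH2#1, and 4.98, 6.36 and 5.47 CPM with shEZH2#3 (-1.48, SE 0.18, adjusted p = 3.19e-05). Its partners in laminin-111, LAMB1 (above) and LAMC1, were lower too. LAMC1, named after its value was seen, was at 115, 149 and 93.7 CPM in shluc and 61.4 to 87.7 CPM in the knockdown libraries (-0.66, SE 0.15, adjusted p = 0.00223). LAMA5, the alpha-5 chain of epithelial basement membranes, also named after its value was seen, was at 721, 605 and 586 CPM in shluc, 1612, 1623 and 1854 CPM with shEZH2#1, and 969, 1451 and 1369 CPM with shEZH2#3 (1.2, SE 0.16, adjusted p = 5.41e-05).

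Beside FN1 and ADAMTS10, matricellular genes stood among the rises. SPARC, a collagen-binding protein, was at 0.599, 2.27 and 2.49 CPM in shluc, 5.87, 7.73 and 10.1 CPM with shEZH2#1, and 9.44, 5.42 and 3.42 CPM with shEZH2#3 (1.94, SE 0.36, adjusted p = 0.000648). THBS2, a thrombospondin, had 0, 0.160 and 0.240 CPM in shluc and 0.436 to 1.2 CPM in the knockdown libraries (2.72, SE 0.65, adjusted p = 0.00337), which rests on few counts. Its relative THBS1 was lower (31.7 to 39.4 CPM in shluc, 18.8 to 22.6 CPM in the knockdown libraries, -0.81, SE 0.13), as were the collagens COL12A1 (-1.08, SE 0.15) and COL4A1 (-0.58, SE 0.13), these 3 named after their values were seen.

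Integrins, the receptors of this matrix, were called higher in 4 of 11 (36.4%) and lower in 2 (18.2%). Over all genes the shares were 11.5% and 8.07%. Also called with the correction were 3 and 1 of them. ITGB4, which binds laminin in hemidesmosomes, was at 218, 180 and 193 CPM in shluc, 300, 360 and 370 CPM with shEZH2#1, and 426, 521 and 443 CPM with shEZH2#3 (1.02, SE 0.14, adjusted p = 8.28e-05). ITGB3, a chain of the vitronectin receptor, was at 0.184 to 0.479 CPM in shluc and 0.829 to 2.79 CPM in the knockdown libraries (2.28, SE 0.44, adjusted p = 0.00096). ITGA5, the alpha chain of the fibronectin receptor, was at 425 to 478 CPM in shluc, 587 to 702 CPM with shEZH2#1 and 1010 to 1246 CPM with shEZH2#3 (0.86, SE 0.14, adjusted p = 0.000295), and was not called with the correction, where the libraries overlapped. ITGA2, of the collagen receptor, fell by 0.74 and lost its call with the correction (-0.22, adjusted p = 0.38) and without shluc replicate 2 (-0.47, adjusted p = 0.136). ITGB1, the common beta chain, named after its value was seen, was at 117 to 157 CPM in shluc and 70.5 to 97.5 CPM in the knockdown libraries (-0.68, SE 0.13, adjusted p = 0.000679).

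**Figure D5:**
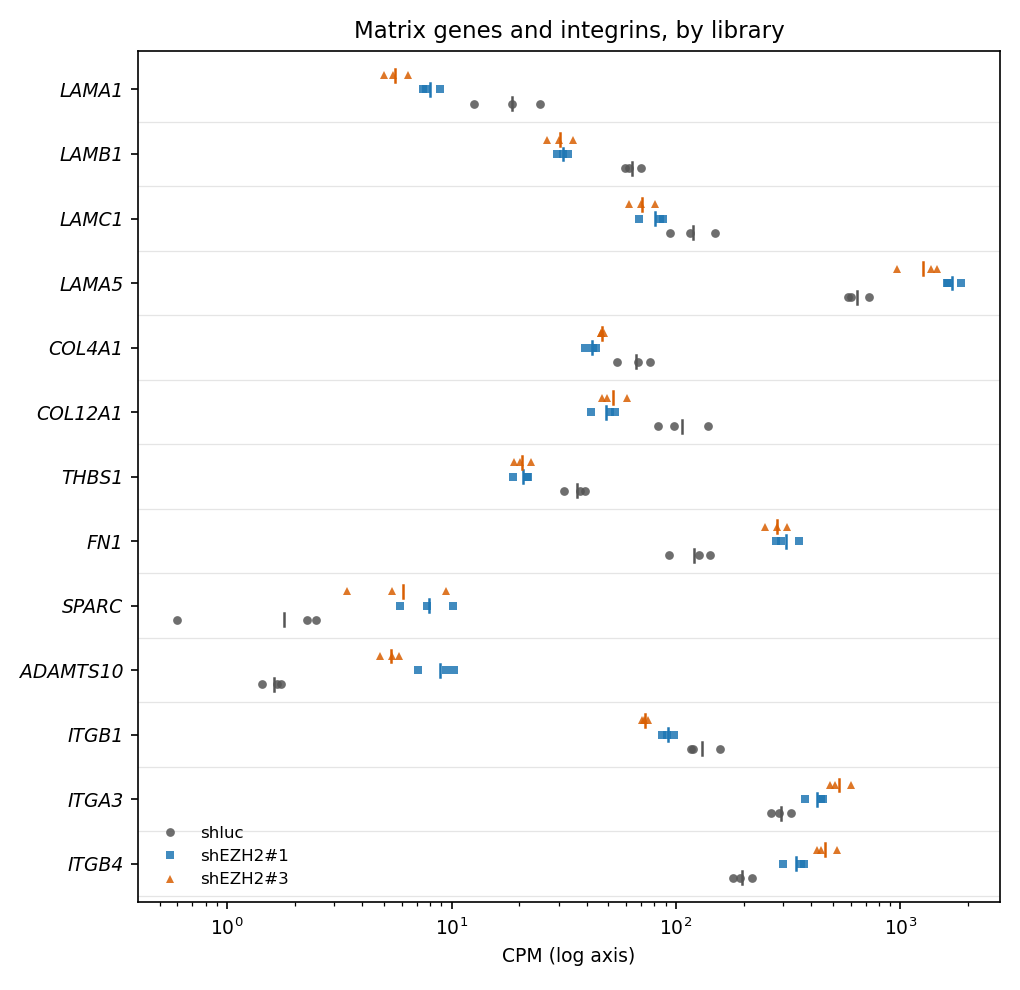
Level of 13 called matrix genes and integrins in CPM on a log axis, where each symbol is a library, colours and shapes mark the group, and the short vertical line is the group mean. LAMA1, LAMB1 and LAMC1 lie lower in all 6 knockdown libraries than in shluc, and LAMA5, FN1, SPARC, ADAMTS10, ITGA3 and ITGB4 lie higher.

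Among 23 tested genes of cell adhesion and tight junctions, 4 were higher (17.4%) and 8 lower (34.8%). Over all genes the shares were 11.5% and 8.07%. Also called with the correction were 2 and 3 of them. TJP3, a scaffold of tight junctions, was at 21.4 to 28.6 CPM in shluc, 36.4 to 42.2 CPM with shEZH2#1 and 73.6 to 96.6 CPM with shEZH2#3 (1.22, SE 0.14, adjusted p = 3.19e-05). CLDN4, a claudin of epithelia, was at 39.6 to 50.3, 105 to 114 and 68.7 to 80.2 CPM in the same order (0.96, SE 0.13, adjusted p = 7.62e-05). The order of the hairpins was thus opposite in these 2 genes. EPCAM, an adhesion molecule of epithelial cells, was at 4.19, 3.43 and 3.64 CPM in shluc and 0.608 to 2.5 CPM in the knockdown libraries (-1.39, SE 0.28, adjusted p = 0.00137). ESRP1, an epithelial splicing regulator, was below 1 CPM in all libraries (-1.29, SE 0.48, adjusted p = 0.0412), and its call was lost with DESeq2 (adjusted p = 0.0713), with the correction and without any 1 of 8 libraries (all but shEZH2#1 replicate 1).

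Squamous differentiation and desmosome genes were called higher in 2 of 14 (14.3%) and lower in 1 (7.14%). The shares over all genes were 11.5% and 8.07%. TGM1, a transglutaminase of the cornified envelope, was at 28.6 to 45.4 CPM in shluc and 56.9 to 84.2 CPM in the knockdown libraries (0.82, SE 0.15, adjusted p = 0.000593), and EVPL, envoplakin, at 66.9 to 85.4 and 96.8 to 181 CPM (0.76, SE 0.15, adjusted p = 0.000931). DSP, desmoplakin, was at 69.8 to 121 and 45.5 to 61.9 CPM, and fell by 0.68 (SE 0.16, adjusted p = 0.00317). EVPL and DSP were also called with the correction.

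In the contractile and actin cytoskeleton list 2 of 25 were higher and 3 lower, beside 11.5% and 8.07% of all genes. ACTA2, smooth muscle actin, was at 2.2 to 2.72 CPM in shluc, 3.09 to 4.77 CPM with shEZH2#1 and 10.2 to 13 CPM with shEZH2#3 (1.44, SE 0.20, adjusted p = 8.48e-05), and was also called with the correction. MYH10, a nonmuscle myosin heavy chain, was at 1.15 to 1.56 and 0.331 to 0.858 CPM (-1.23, SE 0.38, adjusted p = 0.0173), and lost its call without shluc replicate 2 (-1.16, adjusted p = 0.0874) or replicate 3 (-1.17, adjusted p = 0.0594). With the correction it was not called. CNN2, a calponin, rose by 0.55 and TPM3, a tropomyosin, fell by 0.53, and neither passed with the correction.

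Of 26 tested TGF-beta and BMP genes 2 were higher (7.69%) and 5 lower (19.2%), beside 11.5% and 8.07% of all genes. BMP4 was the 1 also called with the correction. TGFBR1, the type I receptor, was at 2.49 to 4.47 CPM in shluc and 1.25 to 2.24 CPM in the knockdown libraries (-1.04, SE 0.26, adjusted p = 0.0045), and the ligand TGFB2 at 7.37 to 13.1 and 4.75 to 7.26 CPM (-0.85, SE 0.19, adjusted p = 0.00231). LTBP3, which stores latent TGF-beta in the matrix, was at 153 to 195 CPM in shluc, 215 to 257 CPM with shEZH2#1 and 310 to 510 CPM with shEZH2#3 (0.82, SE 0.16, adjusted p = 0.000966). In the EGFR family 1 of 11 was called lower (9.09%) and 0 higher, beside 8.07% and 11.5% of all genes. The called gene was the ligand EREG, at 7.55 to 11.6 CPM in the knockdown libraries against 13.4 to 18.3 CPM in shluc (-0.77, SE 0.16, adjusted p = 0.00148), without a call under the correction.

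Retinoid genes, which carry and convert vitamin A, were called higher in 4 of 12 (33.3%) and lower in 0. Over all genes the shares were 11.5% and 8.07%. With the correction 3 of the 4 passed. DHRS3, a retinal reductase, was at 2.90, 2.35 and 5.27 CPM in shluc, 8.59, 7.07 and 9.26 CPM with shEZH2#1, and 21.7, 25.0 and 31.7 CPM with shEZH2#3 (2.08, SE 0.23, adjusted p = 1.84e-05). STRA6, the receptor that takes up retinol, was at 45.0, 38.4 and 38.2 CPM in shluc, 63.9, 67.3 and 72.5 CPM with shEZH2#1, and 132, 150 and 133 CPM with shEZH2#3 (1.26, SE 0.13, adjusted p = 1.76e-05). Both genes formed 3 levels, lowest in shluc and highest with shEZH2#3. ALDH1A1, which makes retinoic acid, had 0, 0.478 and 0.815 CPM in shluc and 0.994 to 3.60 CPM in the knockdown libraries (2.62, SE 0.53, adjusted p = 0.00131). CRABP2, a binding protein of retinoic acid, rose by 0.45, and its call was lost with upper quartile scaling (0.37, adjusted p = 0.0612), the correction and several left-out libraries, among them shluc replicate 2 (0.30, adjusted p = 0.163).

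Lipid metabolism genes were called higher in 6 of 37 (16.2%) and lower in 3 (8.11%), beside 11.5% and 8.07% of all genes. ACSL4, which activates arachidonic acid and shapes sensitivity to ferroptosis, had the largest fold change of the named genes. It was at 1.47, 0.399 and 1.10 CPM in shluc, 9.56, 8.45 and 6.69 CPM with shEZH2#1, and 8.64, 4.86 and 4.97 CPM with shEZH2#3. The gap was 1.65 log2 units and the rise 2.86 (SE 0.32, adjusted p = 2.05e-05), and 3.30 with the correction. CPT1B, a carnitine transferase of fatty acid import into mitochondria, was at 1.66 to 4.07 CPM in shluc, 20.9 to 22.6 CPM with shEZH2#1 and 6.61 to 7.57 CPM with shEZH2#3 (2.2, SE 0.22, adjusted p = 1.75e-05), and is uncertain because 66.4% of its exon length overlaps another gene. GPX4, which removes lipid peroxides, was at 206 to 398 CPM in shluc and 427 to 656 CPM in the knockdown libraries (0.76, SE 0.17, adjusted p = 0.00226), and its log2 fold change was 0.05 with the correction.

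Glycolysis and hypoxia genes were called higher in 3 of 28 (10.7%) and lower in 2 (7.14%), beside 11.5% and 8.07% of all genes. LDHA, lactate dehydrogenase, was at 1216, 1483 and 1412 CPM in shluc, 917, 814 and 769 CPM with shEZH2#1, and 804, 857 and 983 CPM with shEZH2#3 (-0.68, SE 0.13, adjusted p = 0.00096). TPI1, triose phosphate isomerase, was at 1619 to 2691 CPM in shluc and 2920 to 4000.0 CPM in the knockdown libraries (0.66, SE 0.16, adjusted p = 0.00355). Both were also called with the correction. ALDOA and PFKL, earlier enzymes of the pathway, rose by 0.62 and 0.53, with log2 fold changes of 0.11 and 0.00 under the correction.

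The NRF2 and glutathione list had 2 of 25 higher and 3 lower, beside 11.5% and 8.07% of all genes. All 3 falls were also called with the correction, where 2.31% of all genes were. The median log2 fold change of the list was -0.04, beside -0.06 over all genes. NFE2L2, which encodes NRF2, was at 11.8 to 16.1 CPM in shluc and 5.72 to 10.1 CPM in the knockdown libraries (-0.77, SE 0.16, adjusted p = 0.00132). Its targets TXNRD1, thioredoxin reductase, and SRXN1, sulfiredoxin, were lower as well: TXNRD1 was at 118 to 159 and 61.8 to 91.1 CPM (-0.85, SE 0.13, adjusted p = 0.000158), and SRXN1 at 55.7 to 62.6 and 33.7 to 44.6 CPM (-0.57, SE 0.12, adjusted p = 0.00179). HMOX1, another target, named after its value was seen, rose by 0.56 without a call under the correction.

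Lysosomal genes were called higher in 4 of 28 (14.3%) and lower in 3 (10.7%), beside 11.5% and 8.07% of all genes. GPNMB, a lysosomal and surface glycoprotein, was at 2.21, 6.94 and 6.32 CPM in shluc, 18.1, 19.0 and 26.5 CPM with shEZH2#1, and 23.7, 17.8 and 10.4 CPM with shEZH2#3 (1.89, SE 0.29, adjusted p = 0.000218). ATP6V0D1, a subunit of the proton pump, rose by 0.68 (SE 0.14, adjusted p = 0.00169), and both were also called with the correction. CTSD, the protease cathepsin D, rose by 0.68 without that call, and 52.7% of its exon length overlaps another gene. LAMP2, a membrane protein, was at 20.5 to 29.1 CPM in shluc, 8.51 to 12.3 CPM with shEZH2#1 and 18.3 to 19.4 CPM with shEZH2#3, and fell by 0.77 (SE 0.15, adjusted p = 0.00095), with no call under the correction (-0.31, adjusted p = 0.0842).

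Chaperones of the cytosol and their relatives were called lower in 10 of 25 (40.0%) and higher in 0. Over all genes 8.07% were called lower. Of the 10, 5 passed with the correction. HSPA8, the constitutive HSP70 and among the most abundant transcripts, was at 826, 902 and 1019 CPM in shluc, 752, 561 and 539 CPM with shEZH2#1, and 166, 216 and 344 CPM with shEZH2#3 (-1.24, SE 0.18, adjusted p = 0.000116). HSP90AA1, the inducible HSP90, was at 75.9, 99.9 and 87.3 CPM in shluc, 56.6, 56.6 and 53.5 CPM with shEZH2#1, and 37.4, 30.6 and 35.7 CPM with shEZH2#3 (-1.0, SE 0.12, adjusted p = 3.95e-05). In both the shEZH2#3 libraries were the lowest. HSPH1, an exchange factor of HSP70, fell by 1.03 and HSPA9, the mitochondrial HSP70, by 0.69, and neither passed with the correction. The constitutive HSP90AB1 was at 1077 to 1278 CPM in shluc and 630 to 883 CPM in the knockdown libraries (-0.64, SE 0.13, adjusted p = 0.00104).

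Endoplasmic reticulum stress and ATF4 genes were called lower in 10 of 31 (32.3%) and higher in 1. Over all genes 8.07% were called lower. Also called with the correction were 6 of the falls. HSPA5, the HSP70 of this compartment, was at 475, 629 and 563 CPM in shluc, 425, 377 and 363 CPM with shEZH2#1, and 209, 249 and 266 CPM with shEZH2#3 (-0.86, SE 0.13, adjusted p = 0.000224). HSP90B1, its HSP90, was at 138 to 204 CPM in shluc and 73.0 to 122 CPM in the knockdown libraries (-0.83, SE 0.13, adjusted p = 0.000309). ASNS, an ATF4 target that makes asparagine, was at 20, 19.9 and 18.4 CPM in shluc, 13.3, 11.8 and 8.97 CPM with shEZH2#1, and 8.29, 11.3 and 8.89 CPM with shEZH2#3 (-0.90, SE 0.15, adjusted p = 0.000367). SEL1L, of the degradation complex, fell by 0.91 without a call under the correction. TRIB3, another ATF4 target, named after its value was seen, rose by 0.83. Without the correction ASNS and TRIB3 thus moved in opposite directions. No rise in this list was also called with the correction.

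Nuclear transport genes were called lower in 9 of 26 (34.6%) and higher in 0, beside 8.07% and 11.5% of all genes. KPNA2 and XPO5 were the 2 called with the correction. KPNB1, the importin that pairs with KPNA2, was at 90.7 to 123 CPM in shluc, 74.8 to 83.5 CPM with shEZH2#1 and 42.8 to 46.4 CPM with shEZH2#3 (-0.78, SE 0.13, adjusted p = 0.000303). KPNA1, a further importin alpha with 16.3% of its exon length shared with another gene, fell by 0.76, and XPO5, which exports precursors of microRNAs, by 0.75.

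Splicing factor genes were called lower in 12 of 36 (33.3%) and higher in 0, beside 8.07% and 11.5% of all genes. Of the 12, 2 were also called with the correction. RBM3, a cold-inducible RNA-binding protein, was at 192, 222 and 283 CPM in shluc, 162, 101 and 105 CPM with shEZH2#1, and 81.7, 73.1 and 109 CPM with shEZH2#3 (-1.16, SE 0.17, adjusted p = 0.000123). SRSF2, a serine and arginine rich factor, was at 238 to 275 and 113 to 195 CPM (-0.67, SE 0.13, adjusted p = 0.00116), with 36.7% of its exon length shared with another gene. These were the 2 genes that passed on both scales. HNRNPH1 fell by 0.56 and PTBP3 by 0.70, the latter with its call lost without shluc replicate 2 (-0.42, adjusted p = 0.104).

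Ribosomal protein genes were called higher in 8 of 58 (13.8%) and lower in 1 (1.72%), beside 11.5% and 8.07% of all genes. Of the 8 rises 3 were also called with the correction. The reads of ribosomal protein genes can be shared with processed pseudogenes, so these values are uncertain. RPS9 was at 721 to 1210.0 CPM in shluc and 1678 to 2614 CPM in the knockdown libraries (0.95, SE 0.18, adjusted p = 0.000679). RPL8 and RPL18 rose by 0.69 and 0.61, with log2 fold changes of 0.01 and 0.15 under the correction. Of the 13 mitochondrially encoded genes none was called in either direction. MT-CO1, for example, was at 8328 to 9967 CPM in shluc, 4368 to 4942 CPM with shEZH2#1 and 16618 to 18909 CPM with shEZH2#3, so the hairpins lay on opposite sides of the controls.

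In the histone list 1 of 12 (8.33%) was called in each direction, beside 11.5% higher and 8.07% lower over all genes. H2AZ1, which encodes the variant H2A.Z, was at 119, 140 and 193 CPM in shluc, 84.7, 74.0 and 66.0 CPM with shEZH2#1, and 97.5, 80.7 and 94.0 CPM with shEZH2#3 (-0.87, SE 0.15, adjusted p = 0.000389), and was also called with the correction. H2BC5, a canonical histone H2B gene, was at 7.83 to 8.62 CPM in shluc and 8.78 to 14.1 CPM in the knockdown libraries (0.53, SE 0.17, adjusted p = 0.0205). It was no longer called when shluc replicate 2 (adjusted p = 0.0757) or 1 of 3 other single libraries was left out, with a log2 fold change between 0.48 and 0.51, and it was not called with the correction (0.47, adjusted p = 0.0501) or upper quartile scaling (0.44, adjusted p = 0.0568).

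The most abundant genes called on both scales were FOLR1, KRT8 and TPI1 among the rises and LDHA, HSP90AB1 and HSPA8 among the falls. FOLR1, the folate receptor alpha, was at 4781, 3594 and 6116 CPM in shluc, 6543, 6512 and 6827 CPM with shEZH2#1, and 11551, 9470.0 and 10664 CPM with shEZH2#3 (0.79, SE 0.16, adjusted p = 0.00135). KRT8, a keratin of simple epithelia, was at 5055, 3893 and 4564 CPM in shluc and 5318 to 7000.0 CPM in the knockdown libraries (0.46, SE 0.15, adjusted p = 0.0194). Without shluc replicate 2, its lowest control, KRT8 was no longer called (0.35, adjusted p = 0.0788).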

How the data were processed

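RNA of 9 KYSE180 libraries was sequenced after selection of polyadenylated RNA and dUTP-stranded preparation, per the labels' protocols. The deposited table holds estimated counts per Ensembl gene, made by the authors, which need not be whole numbers. fastp, HISAT2, StringTie and the build GRCh38 (hg38) are named in the submitters' processing notes, and the counting step, with its strand setting and annotation, was not given in the sources used here, so overlapping and antisense genes may share reads. The separate file of each library held the same values as the table for all 9 libraries. Symbols were matched to 51996 of 57905 gene identifiers through the naming table and to 342 more through GENCODE 29, which also gave positions, GC content, transcript length and exon overlap.

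Counts were rounded and fitted in edgeR 4.0.16 (R 4.3.3) with TMM scaling, filterByExpr and quasi-likelihood tests on 3 group means, with Benjamini-Hochberg adjustment over the 13252 genes tested. Both hairpins are compared with the same 3 controls. The range condition used log2 CPM with a prior count of 2. For the correction, each library's deviation was smoothed (lowess, span 0.3) over GC content and then log2 length and entered as an offset, and 97.7% of tested genes had both values. The biological coefficient of variation was 0.177. The scripts were tested on simulated counts. Alternatives used DESeq2 1.42.0, limma 3.58.1, other scalings and filters, and left out libraries.

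Genes named are the called PRC2 subunits, the 12 rises and 12 falls with the widest gap among protein-coding genes called on both scales at a mean of 5 CPM and at least 1 CPM in every library, the 3 most abundant of each direction among those, and up to 4 called members per list by fold change (135 genes, of which 6 are not reported here). Of 1052 list entries in 37 lists 1040 were found. The members and the lists were chosen with earlier results of these data known. Counts carry no molecular identifiers, so their number alone limits precision.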

Additional observations from a re-analysis of the deposited data

Results flagged for a closer look

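In 43 of the 135 named genes the change differed between the hairpins by edgeR's quasi-likelihood test of shEZH2#1 minus shEZH2#3 (adjusted p below 0.05). In 34 of them the shEZH2#3 libraries lay farther from the controls, and in 9 the shEZH2#1 libraries did. Over all 13252 genes tested, 3311 differed by the same test, 2467 of them farther from the controls with shEZH2#3. Values below are the log2 difference shEZH2#1 minus shEZH2#3, for 41 of the 43. The correlation of levels with GC content also differed between the hairpins' libraries (-0.25 to 0.25 against 0.37 to 0.64), and its part in these differences was not tested.

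Among the genes higher in all 6 libraries, the rise was larger with shEZH2#3 in the retinoid genes DHRS3 (-1.66) and STRA6 (-1.02), in ACTA2 (-1.53), in the tight junction gene TJP3 (-1.09), in the integrins ITGA5 (-0.82) and ITGB4 (-0.43), and in CDT1 (-0.83), LTBP3 (-0.79), KDM6B (-0.68), FOLR1 (-0.67), ALDOA (-0.52) and RELB (-0.52). It was larger with shEZH2#1 in CPT1B (1.60), in the interferon and antigen presentation genes IRF7 (1.04), IRF9 (1.01), NLRC5 (0.90) and ISG15 (0.61), and in ADAMTS10 (0.73), CLDN4 (0.57) and GPX4 (0.52).

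Among the genes lower in all 6 libraries, the fall was larger with shEZH2#3 in the chaperones HSPA8 (1.35), HSPH1 (1.09), HSPA5 (0.69), HSP90AA1 (0.68), HSPA9 (0.50) and HSP90B1 (0.45). The same held in the importins KPNB1 (0.80), KPNA2 (0.65) and KPNA1 (0.65), and in the mitosis genes ANLN (0.91), KIF20A (0.58), TPX2 (0.46) and AURKA (0.43). It also held in PARP2 (0.82), FANCI (0.66), XRCC5 (0.55), RRM1 (0.54), TPM3 (0.51), HNRNPH1 (0.48) and TXNRD1 (0.45). LAMP2 (-0.80) was the 1 fall that was larger with shEZH2#1.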

How the results depend on the processing

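Alternatives were RLE or upper quartile scaling, DESeq2, limma-voom, no filter, a filter of 1 CPM in all libraries, or dropping the 2 abundant unnamed genes. They gave 1319 to 1709 higher and 868 to 1257 lower genes, against 1523 and 1070. Of the 134 other named genes that could be compared, at most 2 lost an adjusted p below 0.05 in any of them, the range condition aside. The GC and length correction gave 627 higher genes, and 40 named genes lost an adjusted p below 0.05. With the range condition as well, 84 of the 135 named genes were called with and without it. Fitting the 6 knockdown libraries as 1 group, where the difference between hairpins counts as spread, gave 1173 higher and 582 lower genes. That fit ended the call of 16 named genes (adjusted p = 0.0502 to 0.136): RBBP7, RING1, KDM6B, HSPA8, KRT8, XRCC5, PARP2, SHLD2, HNRNPH1, LAMP2, ALDOA, PFKL, TPM3, CRABP2, ESRP1 and H2BC5. A tested minimum fold of 1.5 left 121 higher and 30 lower genes and ended the call of EZH2 (-0.95, adjusted p = 0.134) and of 88 other named genes. A gap of at least 0.25 left 627 and 234, and a call with each hairpin alone 1001 and 390.

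Leaving out 1 library at a time gave 1162 to 1928 higher and 809 to 1567 lower genes. EZH2 then fell by 0.86 to 1.03. On both scales the counts were 348 to 638 higher and 236 to 462 lower, with 462 lower without shluc replicate 3, and the cause was not tested. Leaving out shluc replicate 2 together with shEZH2#3 replicate 1, chosen after seeing the data, gave 1449 higher and 864 lower genes, and 460 and 289 on both scales. A filter of at least 1 CPM in every library leaves 12 of these named genes untested.

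No pairing of the libraries by replicate number was seen: correlations of same-numbered libraries' deviations were -0.12 to 0.08, and 3 of 18 comparisons were highest for the own number. With 3 libraries per group a weak pairing could be missed. A replicate block gave 1484 higher and 993 lower genes, and with the GC and length correction 575 and 691. In that last fit RING1 turned to -0.01 (adjusted p = 0.983). The depth limits genes under about 1 CPM, which rest on few counts.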

Other observations

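The share of called genes was compared between gene types without a test of the difference. Of 215 processed pseudogenes tested, 46 (21.4%) were higher and 2 (0.93%) lower, against 1400 (11.9%) and 1051 (8.91%) of 11793 protein-coding genes. With and without the correction 19 pseudogenes (8.84%) were higher and 2 lower. Of 242 long intergenic RNAs 12 (4.96%) were called higher and 1 (0.413%) lower. The reads of a processed pseudogene can come from its parent gene, and their origin was not tested.

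The called genes were spread unevenly over the chromosomes. On chromosome 19, 255 of 929 tested genes (27.4%) were higher and 15 (1.61%) lower, and the median GC content of the tested genes was 59.8%. Chromosome 22 was next, with 22.1% higher and a median GC content of 57.4%. Chromosome 18 showed the opposite, with 3 of 174 (1.72%) higher and 28 (16.1%) lower at a median GC content of 44.0%. Called with and without the correction were 6.35% higher and 0.753% lower on chromosome 19, and 1.15% higher and 6.32% lower on chromosome 18, beside 3.70% and 2.31% over all genes.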
